A study of Mus musculus with 12 samples.

Results

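The genes described are 10 that mark alternatively activated and tissue-resident macrophages: Retnla, Mrc1, Clec10a, Ccl24, Arg1, Chil3, Cd163, Folr2, Lyve1 and Il4ra. They were taken by symbol from a table of 24956 gene symbols, of which 12856 had enough counts to be tested, and all 10 were among those tested. The genes were chosen by name with earlier results of these counts known, including the difference between host genotypes. Their genotype differences are therefore given as a description, with no p-value, and counts of those past the threshold of the fit over all genes describe the choice. RNA was counted in 12 tumours, each formed by PDA.69, a cell line derived from the KPC mouse model of pancreatic ductal adenocarcinoma and given as poor in T cells by the labels. Among the tumours, 6 came from Alb-Cre+/+ STAT3f/f hosts, called Alb-Cre Stat3f/f below, and 6 from wild-type (WT) hosts. Both groups carried the same tumour line, and no host or tumour treatment, age or sex is given in the labels used here. In the Alb-Cre Stat3f/f hosts the albumin promoter drives the Cre recombinase, which acts on the floxed Stat3 gene in hepatocytes, so macrophages and PDA.69 cells are not the cells the deletion is aimed at. The labels number the tumours of each genotype 1 to 6 and do not say whether each came from a separate mouse, so p-values measure the spread between these tumours. Every sample number in the descriptions is lower for Alb-Cre Stat3f/f than for WT tumours. What the numbers stand for is unknown, and any effect of that order cannot be told apart from genotype.

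Macrophages exposed to interleukin 4 or interleukin 13 take on a programme called alternative activation: the cytokines bind a receptor that contains Il4ra, the kinases attached to it activate the transcription factor Stat6, and Stat6 switches on genes such as Retnla, Arg1, Chil3, Mrc1 and Ccl24 in mice. Macrophages that settle in tissues and maintain themselves there carry an overlapping set of surface proteins, among them Lyve1, Folr2, Cd163 and Mrc1, and such cells lie in the connective tissue of the normal pancreas. These genes are not exclusive to macrophages. Lyve1 and Mrc1 are also made by lymphatic endothelium, Chil3 by monocytes and neutrophils, Clec10a by dendritic cells, Arg1 by hepatocytes, and Il4ra by lymphocytes and epithelial cells.

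The promoters of the genes were read where RefSeq sequence was at hand (GRCm38.p6, 250 bases before to 50 after the annotated start of transcription), and 6 of the 10 genes matched, with 7 windows in all because Folr2 has more than 1 start. Clec10a, Ccl24, Arg1 and Lyve1 were not analysed here. Stat6 prefers the sequence TTCNNNNGAA and other Stat proteins, Stat3 included, prefer TTCNNNGAA, where N is any base. Both are palindromic, so that a match on 1 strand is a match on both, and matches of the motifs may share bases. No window of the genes held both. Of the 7 windows, 1 held the Stat6 type, that of Retnla, with its first base at -145 from the start. Over all RefSeq windows read, 2284 of 32851 held it, or 6.95%. The shorter Stat type also occurred in 1 of the 7 windows, that of Chil3, with its first base at -172, against 2726 of all 32851 windows, or 8.3%. These 2 promoters are printed because they are the ones with a match. Retnla is at chr16:48842359-48842658 on the plus strand and Chil3 at chr3:106167515-106167814 on the minus strand. Capitals mark the match, TTCACAAGAA in Retnla and TTCTTAGAA in Chil3. A match describes the letters in the window and is no evidence of binding.

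Retnla promoter: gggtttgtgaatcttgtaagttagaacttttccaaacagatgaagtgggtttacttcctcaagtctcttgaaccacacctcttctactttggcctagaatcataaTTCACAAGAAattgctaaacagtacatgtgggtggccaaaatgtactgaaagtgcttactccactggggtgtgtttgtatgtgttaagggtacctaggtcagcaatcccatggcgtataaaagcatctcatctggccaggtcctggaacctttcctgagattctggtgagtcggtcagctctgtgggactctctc
Chil3 promoter: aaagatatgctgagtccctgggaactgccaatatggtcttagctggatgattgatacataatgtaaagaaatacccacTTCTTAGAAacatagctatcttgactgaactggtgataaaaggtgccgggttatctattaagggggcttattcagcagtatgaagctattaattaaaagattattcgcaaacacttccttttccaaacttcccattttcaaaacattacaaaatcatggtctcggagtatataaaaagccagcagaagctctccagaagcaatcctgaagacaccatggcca

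Reads came from the 3' ends of transcripts in fixed, paraffin-embedded sections, and the libraries held 6083638 to 8085609 counts in Alb-Cre Stat3f/f tumours and 5691707 to 7594880 in WT tumours. Values are CPM, counts scaled to library size, adjusted by TMM, a method that corrects for a few abundant genes taking much of a library. That correction matters here because the tumours held very different amounts of normal exocrine pancreas. The 15 acinar genes, which encode digestive enzymes such as the trypsinogen Prss2, took 0.725 to 37.5% of counts in Alb-Cre Stat3f/f tumours and 0.52 to 19.7% in WT tumours, with means of 22.3 ± 14.0% in Alb-Cre Stat3f/f tumours and 6.27 ± 7.12% in WT tumours (SD, n = 6 each). The share was over 15% in Alb-Cre Stat3f/f 1, 2, 3 and 4 and in WT 5, and under 1% in Alb-Cre Stat3f/f 5 and WT 6. Prss2 had a log2 fold change of 2.58 ± 1.11 (SE; edgeR quasi-likelihood adjusted p = 0.237), so that acinar content leaned to the Alb-Cre Stat3f/f tumours without passing the threshold. The tumour epithelium markers (Krt19, Krt8, Krt18, Krt7, Epcam and Cdh1) summed to 1846 to 2595 CPM in Alb-Cre Stat3f/f hosts and 2464 to 3149 CPM in WT hosts, so the epithelium that the label names was present in all. All 12 pan-macrophage genes were detected. Their mean log2 CPM, used below as a score of total macrophage RNA, was 6.59 ± 0.24 in Alb-Cre Stat3f/f hosts and 5.97 ± 0.16 in WT hosts (SD, n = 6 each), and the lowest Alb-Cre Stat3f/f value, 6.23, exceeded the highest WT value, 6.16.

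Of the 10 genes, 9 had a higher mean in Alb-Cre Stat3f/f tumours and Il4ra had a lower one. The highest fold changes were those of Retnla and Ccl24, which encode secreted proteins. At a Benjamini-Hochberg adjusted p under 0.05 in the fit over all genes (edgeR quasi-likelihood), 4 were higher in Alb-Cre Stat3f/f tumours (Retnla, Mrc1, Clec10a and Ccl24), where 2.23% of all tested genes were, and 0 were lower, where 0.747% of all were. In 2 of the 10, Retnla and Clec10a, the lowest Alb-Cre Stat3f/f value exceeded the highest WT value, as 1.37% of all tested genes did. The median log2 fold change was 1.2 over the 10 genes and -0.00 over all tested genes. With 1 tumour left out at a time, 1 to 4 of the 10 were past the threshold. Clec10a was past it in 12 of 12 such fits, Ccl24 in 5, Mrc1 in 4, Cd163 in 2 and Retnla in 1. Because the genes were selected on this contrast, the counts and the median describe the selection. The values come from bulk tissue, in which fewer cells of a type and less RNA per cell cannot be told apart.

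**Figure D1:**
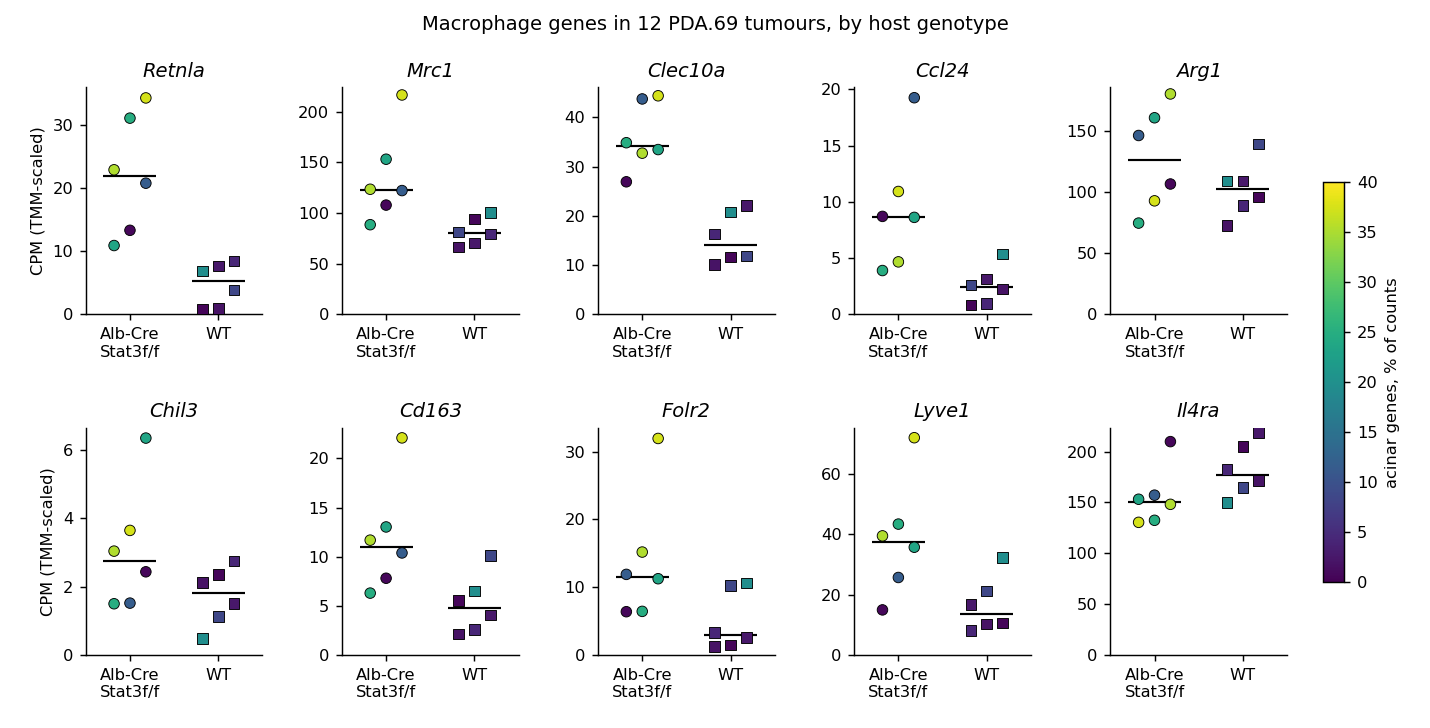
Level of each of the 10 genes in CPM (TMM-scaled; vertical axes start at 0), with 1 point per tumour, circles for Alb-Cre Stat3f/f and squares for WT hosts, and a bar at the median of each 6. Colour gives the share of counts in acinar genes. Groups do not overlap for Retnla and Clec10a, and the point with the highest acinar share, Alb-Cre Stat3f/f 3 at 37.5%, is the highest for Retnla, Mrc1, Clec10a, Cd163, Folr2 and Lyve1 and the lowest for Il4ra.

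Retnla (chromosome 16, 48842551 to 48844461, plus strand, GRCm38) encodes RELM-alpha, a secreted protein that is a standard marker of alternative activation in mice. It had a lowest, median and highest level of 10.9, 21.9 and 34.3 CPM in Alb-Cre Stat3f/f tumours, against 0.832, 5.37 and 8.49 CPM in WT tumours. The groups did not overlap, and the WT tumours themselves fell apart: WT 4 and WT 6 were near 0 with 8 and 6 counts, while WT 2, 3 and 5 approached the lowest Alb-Cre Stat3f/f tumour, number 1. Means were 22.2 ± 9.31 CPM in Alb-Cre Stat3f/f tumours and 4.78 ± 3.39 CPM in WT tumours (SD, n = 6 each), a log2 fold change of 2.22 ± 0.53 (SE) or 4.66-fold, and the highest tumour held 41.2 times the lowest, the widest range of the 10 genes. Ccl24 (chromosome 5, 135569937 to 135573049, minus strand) encodes eotaxin-2, a chemokine that attracts eosinophils through the receptor Ccr3. Its lowest, median and highest levels were 3.91, 8.67 and 19.3 CPM in Alb-Cre Stat3f/f tumours, against 0.832, 2.43 and 5.39 CPM in WT tumours. Alb-Cre Stat3f/f 6 was the highest and WT 6 the lowest. The groups overlapped through WT 5, which lay above Alb-Cre Stat3f/f 2 and 4. The log2 fold change was 1.91 ± 0.44 (SE). Chil3 (chromosome 3, 106147554 to 106167564, minus strand) encodes the chitinase-like protein Ym1. It was the gene with the fewest counts, 10 to 36 in Alb-Cre Stat3f/f hosts and 3 to 22 in WT hosts, or 1.5, 2.74 and 6.34 CPM at the lowest, median and highest Alb-Cre Stat3f/f tumour and 0.49, 1.82 and 2.75 CPM in WT tumours. Alb-Cre Stat3f/f 1 stood highest, and numbers 4, 5 and 6 lay within the WT range. The log2 fold change was 0.80 ± 0.44 (SE). Chil3 has the close paralog Chil4, and how shared reads were counted was not given in the sources used here. Chil4 had 65 counts in Alb-Cre Stat3f/f tumours, 30 of them in 1 tumour, and 4 in WT tumours, too few to be tested. Arg1 (chromosome 10, 24915221 to 24927484, minus strand), arginase 1, breaks arginine down to ornithine and is induced in macrophages by interleukin 4 and by tumour-derived signals. It had 74.8, 127 and 180.5 CPM in Alb-Cre Stat3f/f tumours and 72.7, 103 and 140 CPM in WT tumours at the lowest, median and highest. Alb-Cre Stat3f/f 1, 2 and 6 lay above every WT tumour and the other three within the WT range, and the log2 fold change of 0.31 ± 0.21 (SE) was the smallest of the 9 positive ones. The 7 hepatocyte markers summed to 42.1 to 273 CPM in Alb-Cre Stat3f/f hosts and 103 to 359 CPM in WT hosts, and their part in the Arg1 values was not tested.

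Mrc1 (chromosome 2, 14229392 to 14332057, plus strand) encodes the mannose receptor CD206, an endocytic lectin. It had 88.5, 123 and 216 CPM in Alb-Cre Stat3f/f tumours and 66.4, 80.2 and 101 CPM in WT tumours at the lowest, median and highest. All Alb-Cre Stat3f/f tumours but number 4 lay above the highest WT tumour, number 5, and Alb-Cre Stat3f/f 3 stood far above the rest. Means were 135 ± 45.02 CPM in Alb-Cre Stat3f/f tumours and 82.0 ± 13.3 CPM in WT tumours (SD, n = 6 each), a log2 fold change of 0.72 ± 0.18 (SE). Clec10a (chromosome 11, 70156197 to 70170834, plus strand) encodes MGL1, a lectin for terminal galactose and N-acetylgalactosamine that is found on macrophages and dendritic cells. Its lowest, median and highest levels were 26.9, 34.2 and 44.4 CPM in Alb-Cre Stat3f/f tumours, against 10.2, 14.1 and 22.2 CPM in WT tumours. The groups did not overlap: the lowest Alb-Cre Stat3f/f tumour, number 5, lay above the highest WT tumour, number 2. Means were 36.0 ± 6.79 CPM in Alb-Cre Stat3f/f tumours and 15.5 ± 5.09 CPM in WT tumours (SD, n = 6 each), a log2 fold change of 1.22 ± 0.19 (SE). Clec10a has the close paralog Mgl2, which had 82.4 ± 14.0 CPM in Alb-Cre Stat3f/f hosts and 56.4 ± 17.6 CPM in WT hosts (SD, n = 6 each), and reads shared between the 2 may have been split.

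Cd163 (chromosome 6, 124304656 to 124330527, plus strand) encodes the scavenger receptor for haemoglobin bound to haptoglobin. It had 6.31, 11.04 and 22.1 CPM in Alb-Cre Stat3f/f tumours and 2.13, 4.82 and 10.1 CPM in WT tumours at the lowest, median and highest, a log2 fold change of 1.18 ± 0.36 (SE). The groups overlapped: Alb-Cre Stat3f/f 4 and 5 lay below WT 1. Folr2 (chromosome 7, 101839988 to 101857194, minus strand) encodes folate receptor beta, a marker of resident macrophages in many tissues. It had 6.41, 11.6 and 31.9 CPM in Alb-Cre Stat3f/f tumours and 1.30, 2.98 and 10.6 CPM in WT tumours, a log2 fold change of 1.48 ± 0.60 (SE). Alb-Cre Stat3f/f 3 stood alone at the top, and among WT tumours numbers 1 and 5 were high and the other four low, so that the WT values fell in separate groups. Lyve1 (chromosome 7, 110850607 to 110863239, minus strand) encodes a hyaluronan receptor of resident macrophages near vessels and of lymphatic endothelium. It had 15, 37.6 and 72.0 CPM in Alb-Cre Stat3f/f tumours and 8.11, 13.8 and 32.4 CPM in WT tumours, a log2 fold change of 1.22 ± 0.42 (SE). Alb-Cre Stat3f/f 1, 2, 3 and 4 lay above every WT tumour, and these are the 4 with over 15% acinar counts. The highest WT tumour was number 5, the WT tumour with over 15%. Il4ra (chromosome 7, 125552120 to 125579474, plus strand), the chain shared by the interleukin 4 and interleukin 13 receptors, ran the other way. It had 130.5, 151 and 209.8 CPM in Alb-Cre Stat3f/f tumours and 150.1, 177 and 219 CPM in WT tumours, a log2 fold change of -0.23 ± 0.12 (SE), or 0.853-fold. Alb-Cre Stat3f/f 2, 3 and 4 lay below every WT tumour, and Alb-Cre Stat3f/f 5 was among the highest of the 12.

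Against acinar content Lyve1 rose and Il4ra fell, and the other 8 genes did not pass. The slope on the acinar score (the mean log2 CPM of the 15 acinar genes) was fitted with genotype in the model, so that it rests on differences among tumours of the same genotype, and is a log2 change per doubling of acinar RNA. Over all tested genes, 2.61% had a positive and 0.793% a negative slope at an adjusted p under 0.05, and of the 10 genes 1 had each. Lyve1 rose with acinar content, with a slope of 0.26 ± 0.05 (SE; edgeR quasi-likelihood adjusted p = 0.002), or 1.2-fold per doubling. Il4ra fell, with a slope of -0.08 ± 0.02 (SE; edgeR adjusted p = 0.0212), or 0.947-fold per doubling. Folr2 had the steepest slope, 0.32 ± 0.08 (SE), and lay just outside the threshold (edgeR adjusted p = 0.0532). It passed when WT 1, WT 4 or Alb-Cre Stat3f/f 4 or 5 was left out. The slopes of Retnla (0.19 ± 0.10, adjusted p = 0.342), Cd163 (0.13 ± 0.07, adjusted p = 0.332) and Clec10a (0.08 ± 0.04, adjusted p = 0.308) did not pass in edgeR's test. Those of Mrc1 (0.06 ± 0.04), Ccl24 (0.06 ± 0.10), Arg1 (0.05 ± 0.05) and Chil3 (-0.03 ± 0.10) did not pass either, with edgeR adjusted p values of 0.454, 0.787, 0.666 and 0.924 in that order. Without the 5 tumours over 15%, a fit chosen after the data were seen, the slope was 0.17 ± 0.07 for Lyve1 and -0.07 ± 0.03 for Il4ra, and neither passed (edgeR adjusted p = 0.675 and 0.694). Il4ra also did not pass without WT 5 or without Alb-Cre Stat3f/f 5, with an edgeR adjusted p of up to 0.355 and a slope of -0.08 in either case.

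**Figure D2:**
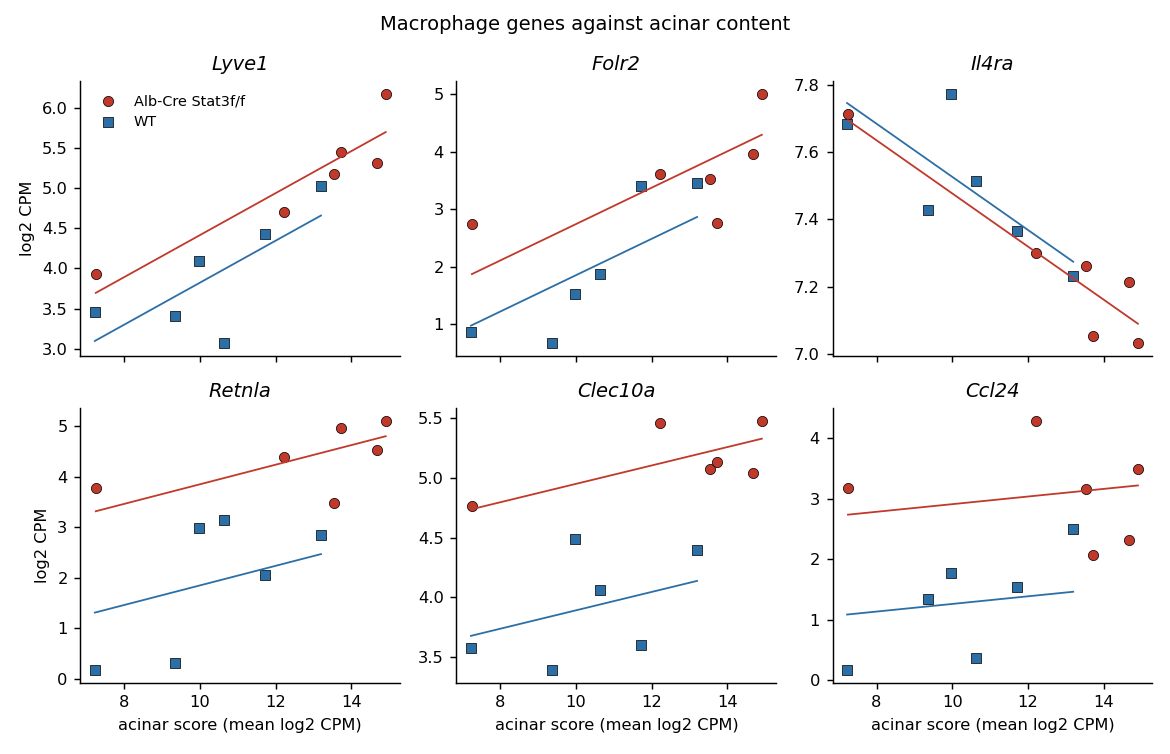
Level of 6 of the genes (log2 CPM, vertical axes not from 0) against the acinar score (mean log2 CPM of 15 acinar genes), with 1 point per tumour, red circles for Alb-Cre Stat3f/f and blue squares for WT. Lines have the slope of the fit with genotype in the model, drawn through the mean of each genotype. The common slope is 0.26 for Lyve1 and -0.08 for Il4ra. For Clec10a, Retnla and Ccl24 the lines of the genotypes lie far apart at equal acinar score.

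Fitted within each genotype alone, the slope of Lyve1 was 0.25 ± 0.05 in the 6 Alb-Cre Stat3f/f tumours (SE; edgeR adjusted p = 0.00661) and 0.28 ± 0.08 in the 6 WT tumours (edgeR adjusted p = 0.183). That of Folr2 was 0.22 ± 0.08 in Alb-Cre Stat3f/f (edgeR adjusted p = 0.308) and 0.60 ± 0.12 in WT tumours (edgeR adjusted p = 0.019). Il4ra had slopes of -0.08 ± 0.03 in Alb-Cre Stat3f/f hosts and -0.07 ± 0.04 in WT hosts. Retnla had slopes of 0.14 ± 0.06 in Alb-Cre Stat3f/f hosts and 0.43 ± 0.22 in WT hosts, and Ccl24 of -0.05 ± 0.11 in Alb-Cre Stat3f/f hosts and 0.36 ± 0.15 in WT hosts. The difference between the slopes was tested as an interaction. None of the 10 genes passed, each with an edgeR adjusted p of 0.9998, and over all genes 0 passed while 483 had an unadjusted p under 0.05. The difference for Folr2 was -0.39 ± 0.16 and that for Ccl24 -0.42 ± 0.19 (log2 per doubling, Alb-Cre Stat3f/f minus WT). Lymphatic endothelium makes Lyve1 too. Of its 6 markers 4 were tested, their median acinar slope was 0.12, and 0 passed in either direction. Prox1, the transcription factor that defines lymphatic endothelium, had a slope of 0.20 ± 0.07 (SE; edgeR adjusted p = 0.148). The 6 markers summed to 41.3 to 98.5 CPM in Alb-Cre Stat3f/f hosts and 35.4 to 74.8 CPM in WT hosts, and Ccl21a had 0 counts in all 12 tumours. Most of that sum was Pdpn, with means of 54.3 CPM in Alb-Cre Stat3f/f hosts and 38.6 CPM in WT hosts. The part of the 6 markers in the Lyve1 slope was not tested. The 4 tested adipocyte markers had a median acinar slope of 0.21, with 0 past the threshold. All 7 summed to 16.97 to 94.2 CPM in Alb-Cre Stat3f/f hosts and 7.62 to 58.0 CPM in WT hosts, and their part was not tested. Beside the Il4ra slope, the 6 tumour epithelium markers had a median slope of -0.07 with 0 past the threshold, and their part was not tested either.

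The fold changes of all 10 genes but Chil3 were nearer 0 when acinar content was held constant. With the acinar score in the model the log2 fold change of Lyve1 was 0.57 ± 0.23 (SE) in place of 1.22 ± 0.42, that of Folr2 0.87 ± 0.41 in place of 1.48 ± 0.60, and that of Il4ra -0.05 ± 0.10 in place of -0.23 ± 0.12. Clec10a had 1.05 ± 0.19 in place of 1.22 ± 0.19, Ccl24 1.81 ± 0.46 in place of 1.91 ± 0.44 and Retnla 1.80 ± 0.48 in place of 2.22 ± 0.53. Cd163 had 0.86 ± 0.36 in place of 1.18 ± 0.36, and Mrc1 0.57 ± 0.19 in place of 0.72 ± 0.18. For Arg1 it was 0.20 ± 0.24 in place of 0.31 ± 0.21, and for Chil3 0.88 ± 0.535 in place of 0.80 ± 0.44. Clec10a was the 1 of the 10 past the threshold in that fit, in which 141 genes were higher and 39 were lower in the Alb-Cre Stat3f/f tumours, against 287 and 96 without the acinar score. Without the 5 acinar-rich tumours, which left 2 Alb-Cre Stat3f/f and 5 WT tumours, Ccl24 had a log2 fold change of 2.82 ± 0.44 (SE), Clec10a of 1.30 ± 0.28 and Retnla of 1.97 ± 0.81. In that fit Ccl24 was the gene past the threshold (edgeR adjusted p = 0.0103), and Clec10a lay just outside it (edgeR adjusted p = 0.0501). The share of all genes past the threshold in that fit is not given here. The 2 Alb-Cre Stat3f/f tumours left, 5 and 6, had the highest pan-macrophage scores of the 12, 6.765 and 6.843. The part of macrophage RNA in these fold changes was not tested.

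**Figure D3:**
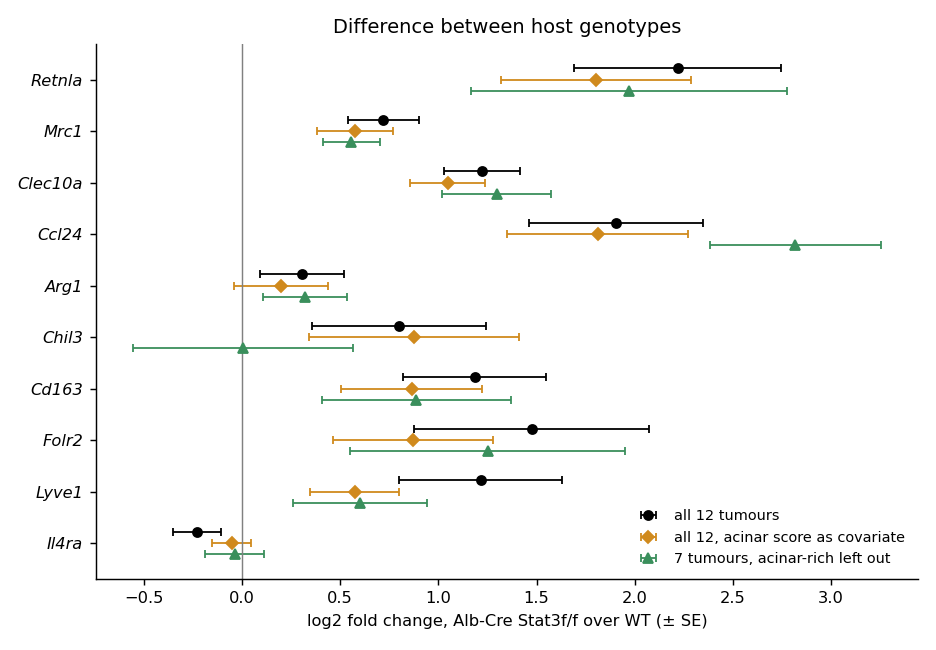
Log2 fold change between host genotypes (Alb-Cre Stat3f/f over WT, horizontal axis) of each of the 10 genes, with bars of 1 SE: all 12 tumours (black circles), all 12 with the acinar score as a covariate (orange diamonds), and the 7 tumours left without the acinar-rich ones (green triangles). The value of Lyve1 is 0.57 with the acinar score and 1.22 without it, and that of Clec10a 1.05 and 1.22.

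Tumours of nearly equal acinar content can be set side by side, 1 tumour against 1, with no error. Near the bottom of the acinar range, Alb-Cre Stat3f/f 5 (0.725% acinar counts) had 13.3 CPM of Retnla, against 0.832 in WT 6 (0.52%). In the same pair, Alb-Cre Stat3f/f 5 had 8.72 CPM of Ccl24, 26.9 of Clec10a and 6.41 of Folr2, and WT 6 had 0.832, 11.6 and 1.52 CPM of these genes in that order. Alb-Cre Stat3f/f 5 had 15 CPM of Lyve1, 108 of Mrc1 and 209.8 of Il4ra, and WT 6 had 10.7, 94.1 and 205 CPM. In this pair Retnla, Ccl24, Clec10a and Folr2 lay far apart and Lyve1, Mrc1 and Il4ra closer together. Alb-Cre Stat3f/f 5 had 7.82 CPM of Cd163, 106.8 of Arg1 and 2.435 of Chil3, and WT 6 had 5.54, 96.3 and 2.356 CPM. The pair was not matched in total macrophage RNA. WT 6 had a pan-macrophage score of 5.764, the lowest of the 12, while that of Alb-Cre Stat3f/f 5 was 6.765. At a high acinar share, Alb-Cre Stat3f/f 1 (23.6%) had 10.9 CPM of Retnla against 6.87 in WT 5 (19.7%), and the levels of Clec10a were 33.5 CPM in Alb-Cre Stat3f/f 1 and 20.8 CPM in WT 5. Alb-Cre Stat3f/f 1 had 35.8 CPM of Lyve1, 11.3 of Folr2 and 153 of Il4ra, close to the 32.4, 10.6 and 150.1 CPM of WT 5, while the level of Mrc1 was 153 CPM in Alb-Cre Stat3f/f 1, against 101 CPM in WT 5. Alb-Cre Stat3f/f 1 had 8.63 CPM of Ccl24, 13.03 of Cd163, 161 of Arg1 and 6.34 of Chil3. WT 5 had 5.395, 6.54, 109.2 and 0.49 CPM in that order. Here too the pan-macrophage scores differed, with 6.019 for WT 5 while that of Alb-Cre Stat3f/f 1 was 6.673. Which genes lay close depended on the tumour chosen. Alb-Cre Stat3f/f 4 (24.89%) lay below WT 5 for Mrc1 (88.5 CPM), Folr2 (6.46), Ccl24 (3.91), Arg1 (74.8), Cd163 (6.31) and Il4ra (132.5). It lay above WT 5 for Retnla (31.1), Clec10a (34.85), Lyve1 (43.4) and Chil3. Its pan-macrophage score was 6.231. The part of macrophage RNA in the differences within any of these pairs was not tested.

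Measured against total macrophage RNA, each gene's difference in mean log2 CPM fell by 0.62, the difference of the pan-macrophage score. The order of the genes therefore stayed the same. The log2 level of each gene minus the pan-macrophage score was compared as a description, since it is the same contrast. Taken as Alb-Cre Stat3f/f minus WT, the difference was 1.85 for Retnla, where 4 of 6 tumours exceeded the highest WT tumour, and 0.63 for Clec10a, where 5 of 6 did. The differences were 1.18 for Ccl24, 1.02 for Folr2, 0.60 for Cd163 and 0.59 for Lyve1, with 1 or 2 of 6 tumours above every WT tumour each. The differences were 0.06 for Mrc1 and 0.10 for Chil3, so that the mean of Mrc1 differed between genotypes about as much as the pan-macrophage score did (0.62). The difference was -0.35 for Arg1 and -0.85 for Il4ra, the last with 6 of 6 Alb-Cre Stat3f/f tumours below every WT tumour. Before the subtraction it was 0.27 for Arg1 and -0.24 for Il4ra, the last with 3 of 6 below every WT tumour. The subtracted score was itself higher in 6 of 6 Alb-Cre Stat3f/f tumours than in every WT tumour, which lowers both values. With the score as a covariate in the fit, 0 of the 10 genes passed, and the log2 fold change was 2.27 ± 0.90 for Retnla, 0.81 ± 0.34 for Clec10a and -0.10 ± 0.68 for Ccl24 (SE). The score itself did not overlap between genotypes, which leaves such a fit little to compare at equal macrophage RNA.

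**Figure D4:**
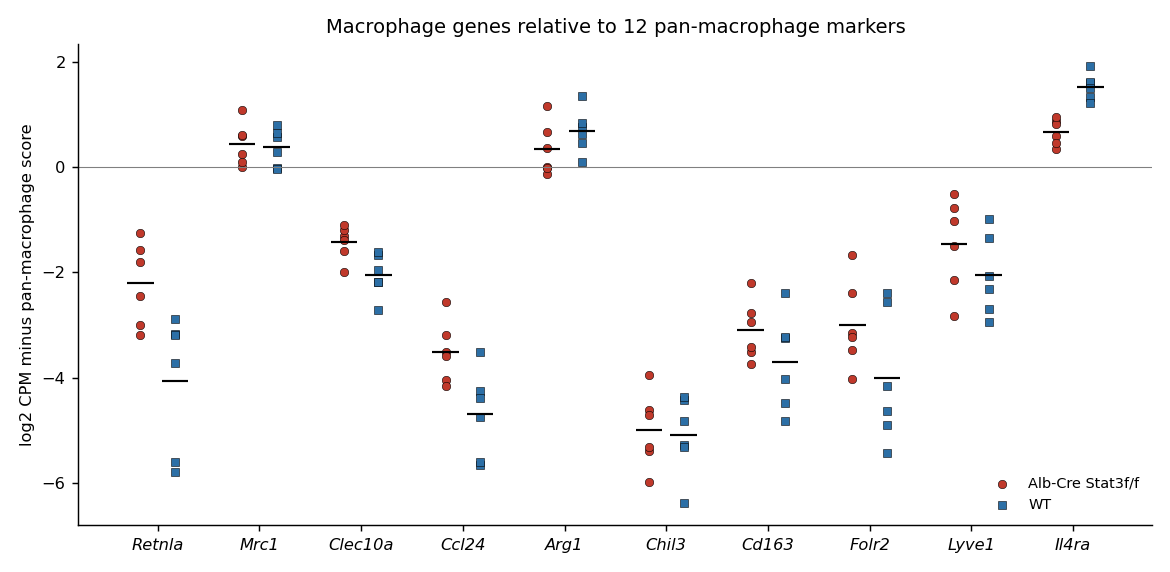
Log2 CPM of each gene minus the pan-macrophage score of the same tumour (vertical axis, log2 units), with 1 point per tumour, red circles for Alb-Cre Stat3f/f and blue squares for WT, and bars at the group means. After the subtraction Il4ra does not overlap between genotypes and is lower in the Alb-Cre Stat3f/f tumours, and Mrc1 overlaps almost fully. The score itself is higher in the Alb-Cre Stat3f/f tumours, and the Il4ra groups overlap before the subtraction.

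Most correlations among the 10 genes were weak. With genotype means subtracted, 32 of the 45 pairs of genes had a positive Pearson r over the 12 tumours, the median was 0.229, and 10 had r over 0.5. In all 65 relations were computed, those with the acinar and pan-macrophage scores included, and after Benjamini-Hochberg adjustment of the permutation p 0 passed on r and 4 on rho. Cd163 was nearest to Folr2 (r = 0.803, permutation p = 0.00478, adjusted 0.0777; rho = 0.727, permutation p = 0.0193, adjusted 0.157), and r was 0.653 without the 2 tumours farthest from the median. For Cd163 and Mrc1 r was lower and rho higher (r = 0.757, permutation p = 0.00298, adjusted 0.0646; rho = 0.846, permutation p = 0.00065, adjusted 0.0211), and r was 0.66 without the 2 farthest tumours. Retnla was nearest to Clec10a (r = 0.783, permutation p = 0.014, adjusted 0.111; rho = 0.783, permutation p = 0.0141, adjusted 0.131), with r = 0.631 without the 2 farthest. Lyve1 and Folr2, both with a positive acinar slope, had r = 0.75 (permutation p = 0.00865, adjusted 0.0937; rho = 0.755, permutation p = 0.0105, adjusted 0.114), and 0.724 without the 2 farthest. Lyve1 had r = 0.827 with the acinar score (permutation p = 0.0017, adjusted 0.0646; rho = 0.888, permutation p = 0.00054, adjusted 0.0211), and 0.933 without the 2 farthest tumours. Folr2 had r = 0.719 with it (permutation p = 0.00864, adjusted 0.0937; rho = 0.839, permutation p = 0.00129, adjusted 0.0279), and 0.652 without the 2 farthest. Il4ra had r = -0.866 with the acinar score (permutation p = 0.00258, adjusted 0.0646; rho = -0.825, permutation p = 0.00262, adjusted 0.0426), and -0.838 without the 2 farthest. Ccl24 stood nearest to total macrophage RNA, with r = 0.689 to the pan-macrophage score (permutation p = 0.018, adjusted 0.117; rho = 0.608, permutation p = 0.0418, adjusted 0.272), and 0.519 without the 2 farthest.

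The genes most like each of the 10 were sought among 10287 genes with a mean of at least 5 CPM, by the same r over 12 tumours, and are given as a description. Chil3 was below that mean. The r printed are the highest of that many over 12 tumours, so high values can come from the search alone. No chance level was computed. Cd163 was most like F13a1, a coagulation factor subunit that resident macrophages also make (r = 0.958), followed by Lox, an enzyme that cross-links collagen (0.909). Ccl24 was most like Mcub (0.920) and Upp1 (0.917), with the pan-macrophage marker Cd68 the third (0.898). Lyve1 was most like Ppp1r9a (0.940), Wnk2 (0.927) and Dmd, the dystrophin gene (0.922). Folr2 was most like Vldlr, a lipoprotein receptor (0.944), Gtf2e2 (0.935) and Plod2, a collagen-modifying enzyme (0.926). Clec10a was most like Clec3b (0.915) and Phf11d (0.893), and Retnla was most like Naa16 (0.907) and Pycard, the adaptor of inflammasomes (0.849). Mrc1 was most like Kif1b (0.944), Mettl1 (0.930) and the stromal protease Mmp3 (0.923), and Arg1 most like Mir22hg (0.874) and Cercam (0.850). Il4ra was most like Spryd3 (0.947), Ezr, which links membrane and actin in epithelium (0.940), and Mgat3 (0.938).

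Lists of other genes of the pathway are read beside all tested genes, of which 2.23% were higher in Alb-Cre Stat3f/f tumours at the adjusted threshold and 19.4% had an unadjusted p under 0.05 in either direction. Of 8 tested genes of interleukin 4 and 13 signalling, 1 passed between genotypes, Il2rg, the common cytokine receptor chain, with 67.5 ± 13.2 CPM in Alb-Cre Stat3f/f hosts and 34.6 ± 12.4 CPM in WT hosts and a log2 fold change of 0.97 ± 0.22 (SE; edgeR adjusted p = 0.0275). The median was -0.11, and 3 of the 8 had an unadjusted p under 0.05. The ligand Il4 had 0 counts in all 12 tumours, which allows up to 0.341 to 0.701 CPM depending on the tumour (3 counts, counting error only), and Il13 had 11 counts in Alb-Cre Stat3f/f, 7 of them in 1 tumour, and 0 in WT tumours. Stat6 had 21.1 ± 4.60 CPM in Alb-Cre Stat3f/f hosts and 27.6 ± 1.78 CPM in WT hosts (SD, n = 6 each), a log2 fold change of -0.38 ± 0.15 that did not pass (edgeR adjusted p = 0.159). Of 10 further tested genes of alternative activation 1 passed, Ccl17, a chemokine that attracts type 2 helper T cells and is also made by dendritic cells. It had 27.6 ± 6.49 CPM in Alb-Cre Stat3f/f hosts and 12.7 ± 3.61 CPM in WT hosts, a log2 fold change of 1.12 ± 0.20 (SE; edgeR adjusted p = 0.00422), the median of the list was 0.48, and 6 of the 10 had an unadjusted p under 0.05. Of 10 tested genes of classical activation, the response to interferon gamma and bacterial products, 1 passed as well, the interferon-induced chemokine Cxcl10 with 1.19 ± 0.26 (SE; edgeR adjusted p = 0.0173). The median was 0.35, and 4 of the 10 had an unadjusted p under 0.05.

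Of 13 other tested resident macrophage genes all 13 had a positive fold change with a median of 0.75, and 1 passed between genotypes, the transcription factor Maf with 0.56 ± 0.15 (SE; edgeR adjusted p = 0.0406), while 10 of the 13 had an unadjusted p under 0.05. On acinar content 2 of the 13 passed, both positive: Igf1, a growth factor that fibroblasts also make, with a slope of 0.19 ± 0.03 (SE; edgeR adjusted p = 0.0008) and Selenop, a selenium carrier made by several cell types, with 0.12 ± 0.03 (SE; edgeR adjusted p = 0.0129). The median slope was 0.11. Of the 12 pan-macrophage genes 7 were higher in Alb-Cre Stat3f/f tumours and 0 lower, among them Mertk, a receptor for dying cells (0.97 ± 0.15), the lysozyme Lyz2 (0.86 ± 0.17) and Adgre1, the F4/80 antigen (0.76 ± 0.17; log2 fold changes with SE). Their median was 0.60, and 12 of the 12 had an unadjusted p under 0.05. Csf1r, the receptor of the macrophage growth factor, had 0.65 ± 0.20 and Cd68 0.40 ± 0.16, and neither passed (edgeR adjusted p = 0.0833 and 0.181). On acinar content 0 of the 12 passed, with a median slope of -0.02. In the lists of other cells that could carry the 10 genes, 4 of 7 tested monocyte genes and 1 of 7 dendritic cell genes were higher in Alb-Cre Stat3f/f tumours (medians 0.78 and 0.82), with an unadjusted p under 0.05 in 4 monocyte and 5 dendritic cell genes. None of 6 neutrophil, 2 eosinophil, 5 peritoneal and mesothelial, 4 lymphatic, 7 hepatocyte and 4 adipocyte genes passed, with medians of 0.52, 0.31, 0.54, 0.57, -0.12 and 0.53 in that order. At an unadjusted p under 0.05 in edgeR there were 2, 0, 1, 1, 0 and 0 of them, and no liver sinusoid gene had enough counts to be tested. The monocyte markers summed to 497 to 709 CPM in Alb-Cre Stat3f/f hosts and 359 to 584 CPM in WT hosts. The largest of them was Plac8, which did not pass, with means of 224 CPM in Alb-Cre Stat3f/f hosts and 195 CPM in WT hosts. Ccr2, which passed, had means of 74.7 CPM in Alb-Cre Stat3f/f hosts and 30.7 CPM in WT hosts. The dendritic markers summed to 49.7 to 85.5 CPM in Alb-Cre Stat3f/f hosts and 25.1 to 59.4 CPM in WT hosts. The neutrophil markers summed to 95.8 to 181.5 CPM in Alb-Cre Stat3f/f hosts and 49.2 to 185 CPM in WT hosts. Their part in the differences of the 10 genes was not tested. The 8 eosinophil markers summed to 49.0 to 79.3 CPM in Alb-Cre Stat3f/f hosts and 40.8 to 78.5 CPM in WT hosts, most of it Il5ra with 57.2 ± 12.8 CPM in Alb-Cre Stat3f/f hosts and 47.6 ± 14.5 CPM in WT hosts (SD, n = 6 each). Siglecf averaged 2.94 CPM in Alb-Cre Stat3f/f hosts and 2.32 CPM in WT hosts, Ear6 had 0 counts in all tumours, and the part of eosinophils was not tested. The tumour epithelium markers ran the other way: 6 of 6 had a negative fold change (median -0.33), 3 had an unadjusted p under 0.05, and 1 passed as lower, Krt7, a keratin of ductal epithelium. Krt7 had 348 ± 63.0 CPM in Alb-Cre Stat3f/f hosts and 522 ± 54.4 CPM in WT hosts (SD, n = 6 each), a log2 fold change of -0.59 ± 0.12 (SE; edgeR adjusted p = 0.0113). Their part in the differences of the 10 genes was not tested.

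**Figure D5:**
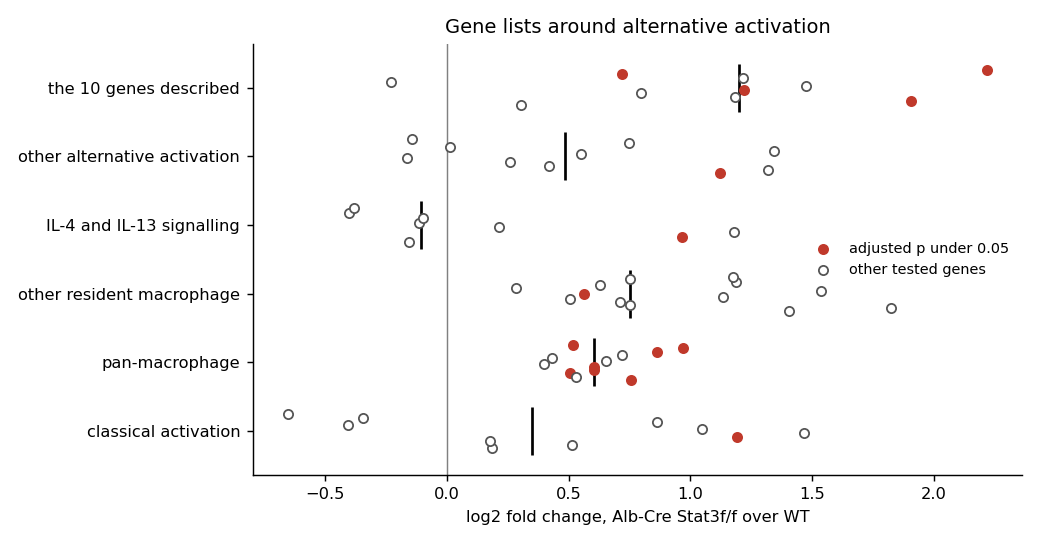
Log2 fold change between host genotypes (Alb-Cre Stat3f/f over WT, horizontal axis) of each tested gene in 6 lists, 1 point per gene, filled where the edgeR adjusted p over all genes was under 0.05, with a bar at the list's median. The 10 genes described have a median of 1.2 and include Retnla at 2.22 and Il4ra at -0.23; the genes of interleukin 4 and 13 signalling centre near 0 with a median of -0.11.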

How the data were processed

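RNA from fixed sections of 12 tumours was made into QuantSeq 3' FWD libraries, per the labels. The deposited values are raw counts per gene, made by the authors. The submitters' processing notes name the aligner STAR and the mouse build mm10. Versions, the counting tool, annotation, strand setting and treatment of multi-mapped reads were not given in the sources used here. Of 24982 entries, 26 with a date in place of a symbol (0.069 to 0.166% of counts) were left out. Genes were kept by filterByExpr (minimum count 10, minimum total 15, proportion 0.7), scaled by TMM (factors 0.578 to 1.29) and tested with edgeR 4.0.16 in R 4.3.3 (robust quasi-likelihood, two-sided), with Benjamini-Hochberg adjustment over 12856 genes and a threshold of 0.05. Acinar-rich libraries have low factors, so CPM there rests on the scaling. Scores are mean log2 CPM (prior count 2). Correlations used 100000 permutations within genotype. DESeq2 1.42.0 was an alternative. No molecular identifiers are stated, so reads may be copies of 1 molecule.

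The genes, lists and tests were chosen with earlier results of these data known. All 10 genes are named whatever their values. Others follow a rule: up to 3 genes per list with the largest fold change past the threshold, Stat6, Il4, Il13, Csf1r, Adgre1, Cd68 and Prss2, and the 3 genes most like each of the 10. Mgl2, Chil4, Prox1, Pdpn, Plac8, Igf1, Selenop, Ear6, Il5ra, Siglecf and Ccl21a were named after their values were seen, and not every gene the rule chose is printed. No libraries were close enough to be duplicates (chi-square per gene of at least 12.6).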

Additional observations from a re-analysis of the deposited data

Results flagged for a closer look

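Values in 2 tumours stood apart from the other 5 of their genotype by Dixon's criterion at the 95% level, which chance meets in about 1 of 20 groups. Folr2 was at 31.9 CPM in Alb-Cre Stat3f/f 3, the tumour with the highest acinar share, 37.5% of counts. Il4ra was at 209.8 CPM in Alb-Cre Stat3f/f 5, the Alb-Cre Stat3f/f tumour with the lowest acinar share, 0.725%. The part of acinar content in either value was not tested.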

How the results depend on the processing

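Of the 10 genes, 4 passed between genotypes. The count was 2 without the low count filter, 2 with a replicate block, 1 with acinar score in the model, 1 without acinar-rich tumours and 0 with the pan-macrophage score as a covariate, and 1 to 4 with 1 tumour left out at a time. It was 4 with RLE factors or without acinar genes and 5 with DESeq2, and 0 genes were lower throughout. Counts over all genes are given only for the main fit and that with the acinar score. Clec10a passed in 12 of 12 fits with a tumour left out, Ccl24 in 5 and Mrc1 in 4. Cd163 passed in 2, those without WT 1 and without Alb-Cre Stat3f/f 4, and Retnla in 1, that without Alb-Cre Stat3f/f 5.

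Of the acinar slopes, 1 passed as positive and 1 as negative. The positive count was 2 with DESeq2, 2 without the genotype term, 2 without tumours under 1% acinar counts, 0 without acinar-rich tumours and 1 to 2 with a tumour left out. The negative count was 0 with a replicate block, 0 without tumours under 1%, 0 without acinar-rich tumours and 0 to 1 with a tumour left out. Lyve1 passed in 12 of 12 such fits, Il4ra in 10 and Folr2 in 4. Leaving out tumours by acinar share was chosen after seeing the data. For the slopes, shares over all genes are given for the main fit only.

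Some signs reversed, all of values that had not passed or no longer did. The log2 fold change of Ccl24 was -0.10 with the pan-macrophage score as a covariate. The acinar slope of Ccl24 was -0.0060 without WT 5 (up to 0.13 with another tumour left out), -0.0013 with acinar percent as the covariate and -0.0082 without tumours under 1%. That of Chil3 was 0.034 without WT 5 (down to -0.18 with another left out), 0.0014 without WT 6, 0.0013 with acinar percent and 0.063 without the genotype term, and that of Mrc1 -0.0056 without acinar-rich tumours. The causes were not tested.

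Tumours with the same number in both genotypes share only a number. Correlations of their deviations from genotype means ran from -0.623 to 0.169, and 1 of 6 was best with its own number. With the replicate block Mrc1 and Clec10a passed between genotypes, and Folr2 (0.34 ± 0.07, edgeR adjusted p = 0.0246) in place of Lyve1 (0.28 ± 0.06, edgeR adjusted p = 0.0738) passed on acinar content. Chil3, with 3 to 36 counts per tumour, is limited most by depth.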
